A study of Mus musculus with 24 samples.

Results

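The unfolded protein response and the integrated stress response were followed through 33 genes in sorted mouse lung tumour cells. The genes were a named list: 14 endoplasmic reticulum (ER) chaperones and folding enzymes, 3 genes of ER-associated degradation (ERAD), the transcription factors Xbp1 and Atf6, 7 factors of the integrated stress response, and 7 genes of amino acid supply controlled by the transcription factor ATF4. All 33 were found in both deposited tables, among 31618 genes for the Lewis lung carcinoma line LLC1 and 36040 for the line KP. After a filter on low values, 32 were tested among 10581 LLC1 genes and 33 among 11193 KP genes. The gene left out was Chac1 in LLC1. LLC1 is a transplantable mouse lung carcinoma line, and KP cells come from a genetically engineered mouse lung cancer model. RNA came from live CD45-negative cells sorted from tumours 15 days after injection of the cells into mice, in 8 groups of 3 libraries. In LLC1 these were Chronic IFNG LLC1 (cells exposed long term to a low level of interferon gamma), Relapsed LLC1 (relapsed after immune checkpoint blockade) and Parental LLC1. In KP they were Chronic IFNG KP, 1st relapse KP, 2nd relapse KP, Late relapse KP and Parental KP. What sets the 1st, 2nd and Late relapse lines apart beyond these names is not given in the sources used here. The labels list no treatment of the mice themselves; the blocking agents, the interferon dose and whether a relapsed line is 1 clone are not given in the sources used here. The 3 libraries of a group are called biological replicates, but separate animals are not stated, so p-values measure only the spread between these samples.

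The ER folds proteins destined for membranes and secretion, and 3 sensors in its membrane report when unfolded proteins build up. ATF6 is cut and moves to the nucleus, IRE1 splices Xbp1 mRNA into a form that encodes an active transcription factor, and both switch on chaperone and ERAD genes. The third sensor, PERK, belongs to the kinases that phosphorylate the initiation factor eIF2 alpha. That slows general protein synthesis but favours translation of Atf4 mRNA, and ATF4 protein then turns on amino acid transporters, synthesis enzymes and the factor CHOP (Ddit3). Shortage of amino acids reaches the same step through the kinase GCN2, so the amino acid branch can respond without the chaperone branch. Splicing of Xbp1, cleavage of ATF6 and translation of Atf4 are not visible in gene-level RNA values.

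Values are normalised counts per library calculated back from the deposited log2-scale values, and differences are on the deposited log2 scale, which understates changes of low genes. Genes were called at a limma adjusted p (Benjamini and Hochberg, over all tested genes of a line) below 0.05. Estimated depth was 13.3 to 34.9 M fragments per LLC1 library and 13.7 to 32.6 M per KP library. The tables were normalised separately, so levels were compared only within a line. The leukocyte gene Ptprc, whose product CD45 was the basis of the sort, lay at 0.288 to 2.93 CPM (normalised counts of a library scaled to a common total) in LLC1 and 0.50 to 9.66 in KP. Other markers moved with the groups. The summed level of 8 fibroblast markers was 20217 to 31773 CPM in Chronic IFNG LLC1 tumours and 12199 to 13883 in Relapsed LLC1 tumours, against 10904 to 15439.9 in Parental LLC1 tumours. In KP it was 433 to 1367 in Chronic IFNG, 2884 to 4037 in 1st relapse, 59.4 to 93.7 in 2nd relapse and 549 to 2494 in Late relapse tumours, against 619.8 to 1003 in Parental tumours, and no fibroblast marker was at 0 in any library. Of 6 plasma cell markers, relevant because those cells are rich in ER, the 5 other than Sdc1 had group means of 0 to 125 normalised counts in LLC1 and 0 to 36.9 in KP, and Sdc1 was the source of nearly all of that list's level. The part of other cell types in the results was not tested, and in bulk RNA fewer cells of a type and less RNA per cell cannot be told apart.

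Promoters were searched for the textbook elements of the 2 branches. The ER stress element is CCAAT, 9 bases of any kind, then CCACG, and is bound by NF-Y and ATF6. The C/EBP-ATF element TGATGNAA is bound by ATF4 with a C/EBP partner. Both strands were searched in RefSeq promoter windows of GRCm38.p6, from 250 bases before to 50 bases after a start. Windows existed for 29 of the 33 genes. The ER stress element was found in 7 of the 29, all of them among the 12 ER chaperone genes with a window (Hspa5, Hsp90b1, Calr, Canx, Pdia6, Dnajc3 and Creld2), against 37 of 27025 genes with a window (0.137%). The C/EBP-ATF element was found in 4 of the 29 (Herpud1, Trib3, Chac1 and Asns), against 1219 of 27025 genes (4.51%). No window of the list held both elements. The 250 bases upstream of the start are shown, in the direction of transcription, for the 4 motif-holding genes with the largest called differences from parental tumours. Capitals mark the fixed letters of the element. In Herpud1 the element lies on the opposite strand, so its reverse complement is seen.
Herpud1, chr8:94386179-94386428, plus strand: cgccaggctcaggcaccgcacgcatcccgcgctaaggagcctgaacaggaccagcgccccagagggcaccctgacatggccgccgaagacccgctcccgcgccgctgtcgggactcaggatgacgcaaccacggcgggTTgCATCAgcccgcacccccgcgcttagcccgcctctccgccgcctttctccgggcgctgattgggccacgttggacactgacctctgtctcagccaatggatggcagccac
Asns, chr6:7693210-7693459, minus strand: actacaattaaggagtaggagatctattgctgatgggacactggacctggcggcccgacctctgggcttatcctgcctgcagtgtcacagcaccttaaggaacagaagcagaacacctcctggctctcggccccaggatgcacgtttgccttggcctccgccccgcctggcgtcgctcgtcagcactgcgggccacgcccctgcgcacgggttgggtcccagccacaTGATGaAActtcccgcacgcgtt
Pdia6, chr12:17266339-17266588, plus strand: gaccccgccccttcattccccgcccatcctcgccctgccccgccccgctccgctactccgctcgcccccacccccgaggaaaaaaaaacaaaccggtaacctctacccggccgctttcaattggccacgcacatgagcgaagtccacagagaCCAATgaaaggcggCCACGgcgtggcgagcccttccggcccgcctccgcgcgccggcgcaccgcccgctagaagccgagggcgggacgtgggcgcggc
Canx, chr11:50325674-50325923, minus strand: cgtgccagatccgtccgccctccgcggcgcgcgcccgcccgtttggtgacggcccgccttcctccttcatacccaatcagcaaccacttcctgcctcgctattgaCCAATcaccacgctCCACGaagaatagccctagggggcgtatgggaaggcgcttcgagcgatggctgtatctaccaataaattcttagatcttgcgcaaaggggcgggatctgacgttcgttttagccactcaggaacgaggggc
A match says only that these letters are present, and binding was not measured.

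Set against parental tumours, called amino acid genes shared 1 direction within each group and called ER chaperones mostly did not. All 7 amino acid genes rose in 2nd relapse KP tumours and 6 of 7 in Late relapse KP tumours, where 36.8% and 31.0% of all tested genes were called higher. The 2nd relapse count was 5 after quantile normalisation, 6 after median centring and 5 to 7 with 1 library left out. In 1st relapse KP tumours 3 rose (all genes, 25.4%), with 3 higher and 1 lower after median centring. In Relapsed LLC1 tumours 4 rose (all genes, 25.9%), and in Chronic IFNG LLC1 tumours 4 fell (all genes, 15.5%). The mean of the 7 deposited log2 values, relative to the parental mean, was 0.60 in 2nd relapse and 0.51 in Late relapse KP tumours, 0.15 in 1st relapse and -0.05 in Chronic IFNG KP tumours. It was -0.29 in Chronic IFNG LLC1 and 0.21 in Relapsed LLC1 tumours. On the deposited scale the mean of the 14 ER chaperones ran from -0.08 (Chronic IFNG LLC1) to 0.15 (1st relapse KP). After quantile normalisation it was 0.20 in 1st relapse and -0.12 in 2nd relapse KP tumours. The ER chaperone mean of the 1st relapse libraries (0.09 to 0.22) lay wholly above that of the Parental KP libraries (-0.04 to 0.03), whereas their amino acid mean (0.09 to 0.19) overlapped parental. The library values of the amino acid mean did not overlap those of the parental group in 2nd relapse KP (0.51 to 0.65), Late relapse KP (0.43 to 0.60), Chronic IFNG LLC1 (-0.37 to -0.20) and Relapsed LLC1 (0.18 to 0.23), against -0.12 to 0.10 in Parental KP and -0.11 to 0.10 in Parental LLC1. Members share libraries and were chosen with earlier results known, so these means are given without a test.

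**Figure D1:**
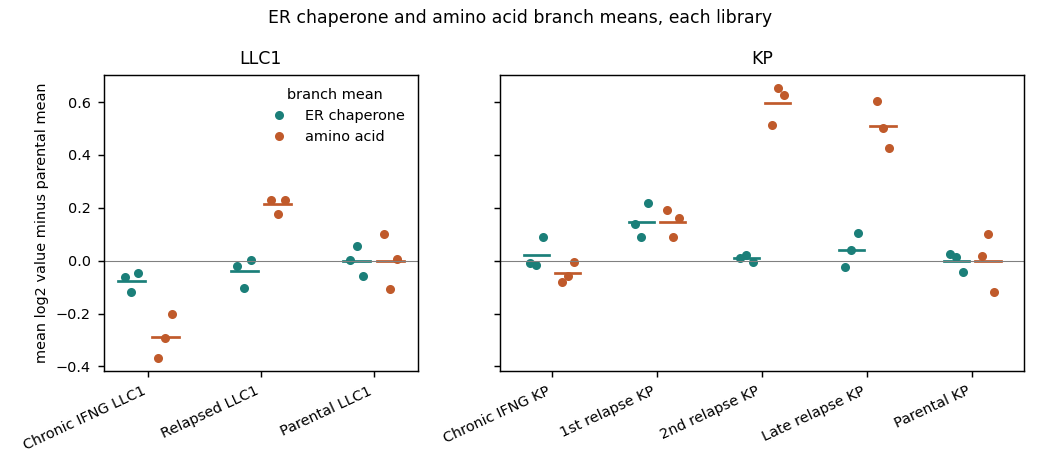
Mean deposited log2 value of the 14 ER chaperone and 7 amino acid genes in each library, minus the mean of the parental libraries of the same line (points: libraries; lines: group means, n = 3). The amino acid points of 2nd relapse (0.60) and Late relapse (0.51) KP tumours lie above all parental points. Of the KP ER chaperone points only those of 1st relapse (0.15) lie wholly above parental; after quantile normalisation the ER chaperone mean was 0.20 in 1st and -0.12 in 2nd relapse.

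Counts of called genes are read against the share called among all tested genes. In Chronic IFNG LLC1 tumours 9 of 32 were called against Parental LLC1, 2 higher and 7 lower, where 24.5% of all tested genes were called (9.03% higher, 15.5% lower); without Chronic IFNG LLC1 replicate 2 the count was 5. In Relapsed LLC1 tumours 17 of 32 were called, 10 higher and 7 lower, beside 45.4% of all genes (25.9% higher, 19.5% lower). In Chronic IFNG KP tumours 6 of 33 were called against Parental KP, 4 higher and 2 lower, beside 21.8% (12.8% and 9.00%); the count was 3 without Chronic IFNG KP replicate 1 and 3 without Parental KP replicate 1. In 1st relapse KP tumours 16 were called, 12 higher and 4 lower, beside 50.9% (25.4% and 25.5%), and the split was 10 and 7 after median centring. In 2nd relapse KP tumours 23 were called, 19 higher and 4 lower, beside 65.8% (36.8% and 29.0%), and the split was 13 and 7 after quantile normalisation. In Late relapse KP tumours 20 were called, 16 higher and 4 lower, beside 56.9% (31.0% and 25.9%). The totals for the whole list were thus within 8 percentage points of the background in every comparison with parental tumours, the largest gap being in Relapsed LLC1 tumours (53.1% of the list). These totals pool both directions. By direction, 19 of 33 genes were higher in 2nd relapse and 16 in Late relapse KP tumours, beside 36.8% and 31.0% of all genes. Both counts include Chac1 and Trib3, which passed the filter only through groups where they were high. In each of these groups 4 of 33 were lower, beside 29.0% and 25.9%. The Late relapse split was 14 higher and 5 lower after quantile normalisation. The splits by direction were not tested. The KP comparisons share the same 3 parental libraries, and so do the LLC1 comparisons.

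**Figure D2:**
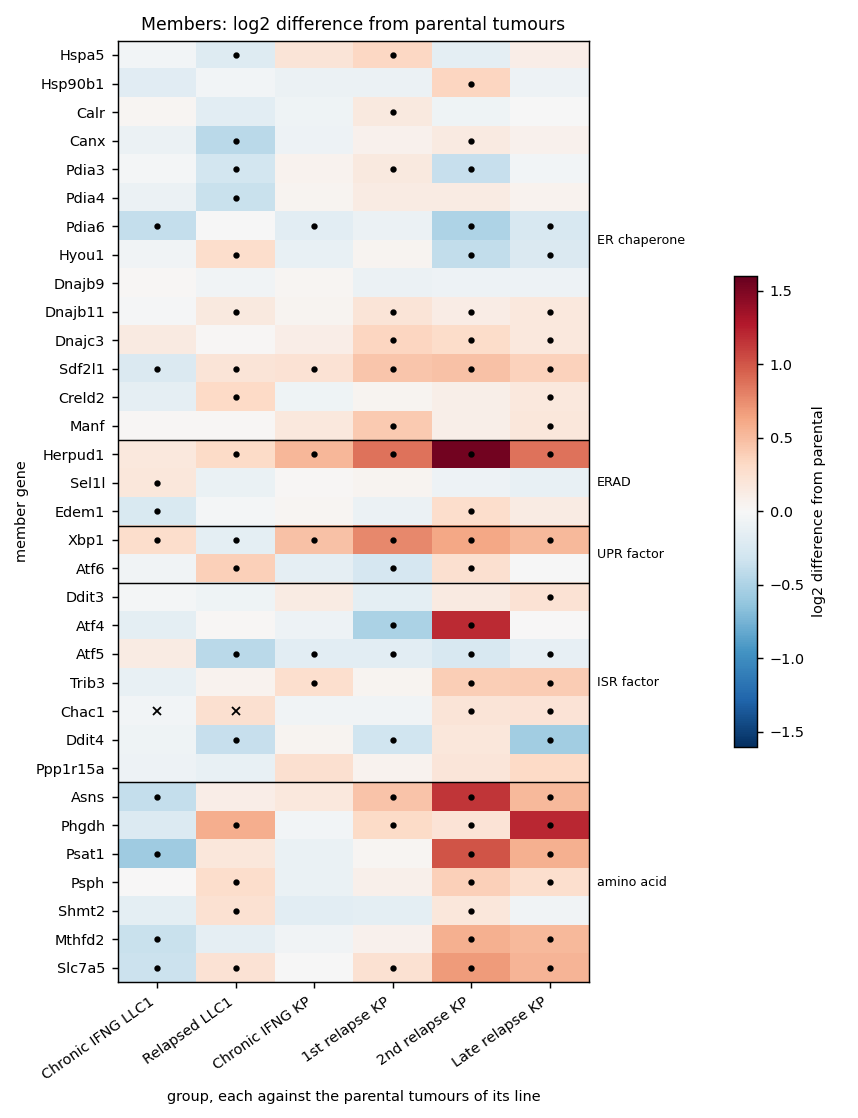
Log2 difference from the parental tumours of the same line for each of the 33 genes (rows, by branch) in the 6 comparisons (columns); dots mark limma adjusted p below 0.05, crosses genes not tested. The amino acid rows are uniformly higher in 2nd relapse KP, from 0.18 to 1.15, whereas the ER chaperone rows there run from -0.49 to 0.47.

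More amino acid genes were called in 2nd and Late relapse KP tumours than in the other KP groups, as were more of all tested genes. Over all genes 65.8% were called in 2nd and 56.9% in Late relapse, against 50.9% in 1st relapse and 21.8% in Chronic IFNG tumours. The amino acid genes differed in which of the 2nd and Late relapses was higher. Asns, which makes asparagine, had 1207, 1461 and 1163 normalised counts in 2nd relapse, 776, 627 and 589.9 in Late relapse, 571, 587 and 689 in 1st relapse and 409, 411 and 468 in Chronic IFNG tumours, against 359.9, 392 and 271 in Parental KP tumours. All relapse libraries lay above the parental ones, and the 2nd relapse libraries lay above all others. The rise over parental was 3.75-fold in 2nd relapse (log2 difference 1.15, SE 0.08, limma adjusted p 1.4e-08), 1.95-fold in Late relapse (log2 difference 0.52, SE 0.08, limma adjusted p 8.8e-05) and 1.81-fold in 1st relapse (log2 difference 0.46, SE 0.08, limma adjusted p 3.3e-04), while the Chronic IFNG difference of 0.17 was not called. The 6 tested neighbours of Asns within 1 Mb had a median difference of 0.17 in 2nd relapse, and none rose as much.

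Serine is made from a glycolytic intermediate by the enzymes of Phgdh, Psat1 and Psph in turn. Phgdh, the first of them, had 13212, 11162 and 11894 counts in Late relapse KP tumours and 5749.9, 5852 and 5825 in 2nd relapse tumours, against 4837, 5304 and 4609.6 in Parental KP tumours. Its 2.46-fold rise in Late relapse (log2 difference 1.21, SE 0.07, limma adjusted p 6.6e-09) was the largest of the list in that group, and none of its 9 tested neighbours within 1 Mb rose as much. The 2nd relapse rise was 0.22 (limma adjusted p 0.012), and the call was lost without Parental KP replicate 3 (log2 difference 0.18, adjusted p 0.058). In 1st relapse tumours it had 6554, 5739 and 6263 counts (log2 difference 0.30, SE 0.07, limma adjusted p 0.0024). Psat1 had 2372, 2871 and 2781 counts in 2nd relapse and 2089.9, 1832 and 1575 in Late relapse tumours, against 1024, 1472 and 794 in Parental KP tumours. The parental libraries were spread widely, but both relapse groups lay wholly above them (log2 difference 1.01, SE 0.12, limma adjusted p 4.7e-06 and log2 difference 0.57, SE 0.12, limma adjusted p 0.0013). Psph, the last of the pathway and a low gene, had 319.8, 436 and 457 counts in 2nd relapse and 351, 330.2 and 349 in Late relapse tumours, against 233, 238 and 209 in Parental KP tumours, with rises of 0.38 (limma adjusted p 1.1e-04) and 0.27 (limma adjusted p 0.0026). Thus the largest serine gene change was in Psat1 in 2nd relapse tumours and in Phgdh in Late relapse tumours.

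The folate enzymes and the transporter of the branch were also higher in 2nd relapse tumours. Mthfd2, a mitochondrial folate enzyme, had 562, 757 and 584 counts in 2nd relapse and 686, 587 and 517 in Late relapse tumours, against 319, 322 and 249 in Parental KP tumours. It rose 2.14-fold (log2 difference 0.57, SE 0.08, limma adjusted p 1.3e-05) and 2.01-fold (log2 difference 0.52, SE 0.08, limma adjusted p 5.6e-05), with no overlap of groups. Slc7a5, the large neutral amino acid transporter LAT1, had 1072, 1126 and 1353 counts in 2nd relapse, 1146, 1031 and 926 in Late relapse and 856, 671 and 727 in 1st relapse tumours, against 565, 613 and 521 in Parental KP tumours. Its rise was 2.09-fold (log2 difference 0.68, SE 0.07, limma adjusted p 1.2e-06), 1.83-fold (log2 difference 0.55, SE 0.07, limma adjusted p 2.2e-05) and 1.33-fold (log2 difference 0.24, SE 0.07, limma adjusted p 0.012), and the 1st relapse call was lost without 1st relapse KP replicate 1 or Parental KP replicate 3 (log2 differences 0.18 to 0.21, adjusted p 0.053 to 0.065). Shmt2, which splits serine to charge mitochondrial folate, was the weakest of the branch, with 1593 ± 85.8 counts in 2nd relapse against 1350.4 ± 104 in Parental KP tumours (SD, n = 3 each; log2 difference 0.18, SE 0.07, limma adjusted p 0.031), a call lost without 2nd relapse KP replicate 3 or Parental KP replicate 3 (log2 differences 0.13 to 0.15, adjusted p 0.11 to 0.13). In Chronic IFNG KP tumours limma called none of the 7 genes, with 1 at an unadjusted p below 0.05, and their differences ran from -0.17 (Shmt2) to 0.17 (Asns). In 1st relapse tumours the 3 called genes were Asns, Phgdh and Slc7a5, and the median of the 7 was 0.08, against 0.57 in 2nd relapse and 0.52 in Late relapse tumours; medians over all tested genes were -0.01, 0.03 and 0.01. Marker lists of cell types and of dissociation stress moved in the same groups. All 8 fibroblast markers were called lower in 2nd relapse tumours (all genes, 29.0%). The summed level of 4 epithelial tumour markers was 3918 to 4022 CPM in Parental KP tumours. It was 6608 to 7232 in 2nd relapse and 4747 to 4985 in Late relapse tumours, with 4 of 4 called higher in both (all genes, 36.8% and 31.0%). The sum of 8 dissociation stress genes was 1553 to 2014 CPM in 2nd relapse against 1072 to 1542 in Parental KP tumours. Of these 8 genes, 4 were called higher (all genes, 36.8%). The sum of 6 leukocyte markers was 24.4 to 28.5 CPM in 2nd relapse against 82.0 to 114 in Parental KP tumours. The sum of 6 endothelial markers was 188 to 222 CPM in 2nd relapse and 240.5 to 260.3 in Late relapse, against 152 to 165 in Parental KP tumours, with 1 of 6 called higher and the other 5 not tested. The part of all these markers in the amino acid result was not tested.

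**Figure D3:**
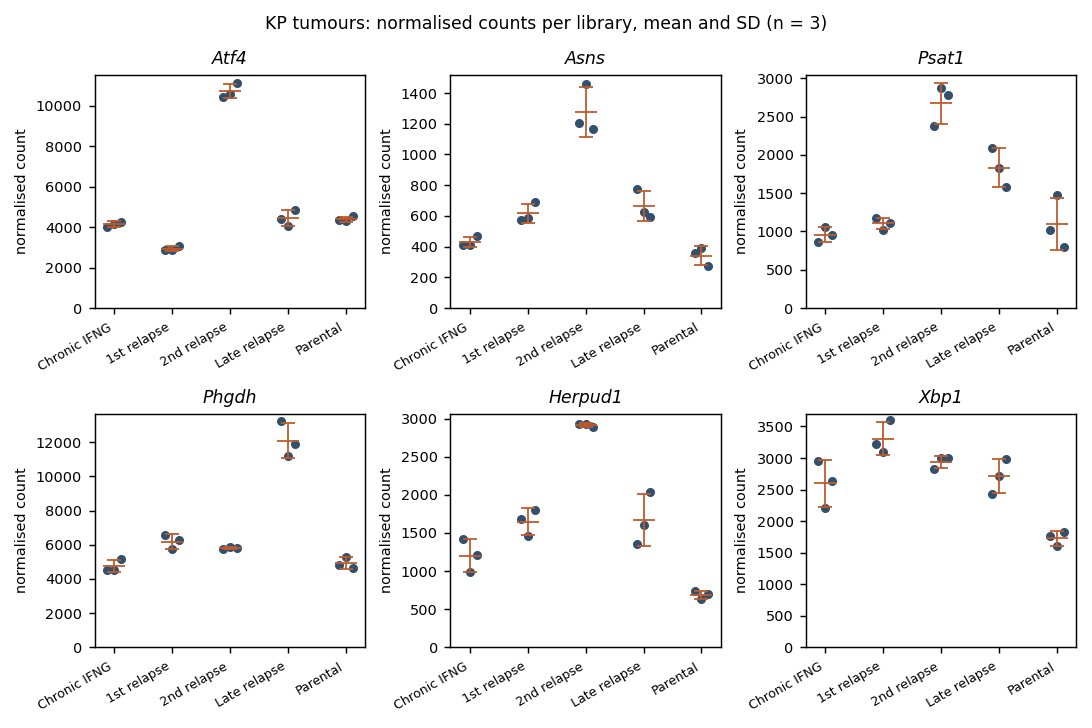
Normalised counts per KP library for 6 genes (points: libraries; bars: mean and SD, n = 3; linear axis from 0). Atf4, Asns, Psat1 and Herpud1 peak in 2nd relapse tumours, Phgdh in Late relapse tumours, and Xbp1 lies above parental in all 4 other groups.

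In LLC1, 4 of the 7 amino acid genes fell in Chronic IFNG tumours (all genes, 15.5%) and 4 of 7 rose in Relapsed tumours (all genes, 25.9%). Slc7a5 was in both counts. Psat1 had 1759, 1685 and 2027 counts in Chronic IFNG and 3493, 3164 and 3530.1 in Relapsed LLC1 tumours, against 3475, 2602 and 2769 in Parental LLC1 tumours. The Chronic IFNG libraries lay below the others, a 1.62-fold fall (log2 difference -0.57, SE 0.09, limma adjusted p 0.0022), whereas the Relapsed and Parental groups overlapped (log2 difference 0.18, SE 0.09, limma adjusted p 0.12). The Relapsed rise was called without Parental LLC1 replicate 1 (log2 difference 0.29, adjusted p 0.012). Asns had 1668, 1818 and 1957 counts in Chronic IFNG and 2705, 2549 and 2958 in Relapsed tumours, against 2746, 2155 and 2618 in Parental LLC1 tumours. Again the Chronic IFNG libraries were the lowest (log2 difference -0.38, SE 0.08, limma adjusted p 0.0088) and the Relapsed difference of 0.11 was not called. Slc7a5 had 943, 1022 and 1166 counts in Chronic IFNG and 1828, 1739 and 1739 in Relapsed tumours, against 1444, 1439 and 1429 in Parental tumours. No groups overlapped: it fell in Chronic IFNG (log2 difference -0.34, SE 0.06, limma adjusted p 0.0026) and rose in Relapsed tumours (log2 difference 0.23, SE 0.06, limma adjusted p 0.0069).

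Mthfd2 also fell in Chronic IFNG LLC1 tumours, with 1123, 1102 and 1282 counts against 1931, 1365 and 1606 in Parental LLC1 tumours (log2 difference -0.36, SE 0.09, limma adjusted p 0.014), a call lost without Chronic IFNG LLC1 replicate 2 (log2 difference -0.33, adjusted p 0.053). In Relapsed tumours it had 1475, 1377 and 1432 counts, a difference of -0.14 (limma adjusted p 0.20) that was not called with all libraries but was called lower without Parental LLC1 replicate 2 (log2 difference -0.24, adjusted p 0.033). Phgdh had 4395, 4439 and 4369 counts in Relapsed and 2156, 2089 and 2809.8 in Chronic IFNG tumours, against 2867, 2618 and 2878 in Parental LLC1 tumours. The Relapsed libraries lay within a narrow band above all others, a 1.58-fold rise (log2 difference 0.58, SE 0.08, limma adjusted p 3.1e-04). The Chronic IFNG difference of -0.21 was not called with all libraries, but was called without Chronic IFNG LLC1 replicate 3 (log2 difference -0.33, adjusted p 0.0031). On chromosome 3, which carries Phgdh (chr3:98313170-98339990, GRCm38), the 526 tested genes had a median of 0.29 in Relapsed LLC1 tumours, and the 9 neighbours of Phgdh within 1 Mb a median of 0.14, 2 of them rising as much as Phgdh. Psph had 332 ± 22.0 and Shmt2 3155 ± 49.1 counts in Relapsed tumours, against 217 ± 26.1 and 2584 ± 179 in Parental LLC1 tumours (SD, n = 3 each), and both were called higher (0.28, limma adjusted p 0.012 and 0.25, limma adjusted p 0.0071). The part of chromosome 10, which carries Shmt2 and whose 520 tested genes had a median of 0.16 in Relapsed LLC1 tumours, was not tested. Between the 2 groups, 6 of the 7 genes were higher in Relapsed than in Chronic IFNG LLC1 tumours, from 0.27 for Psph to 0.79 (limma adjusted p 2.9e-05) for Phgdh, with a median of 0.49. The Mthfd2 difference of 0.22 (limma adjusted p 0.056) was not called. In Chronic IFNG against Parental LLC1 tumours the Psph difference was 0.01 (limma adjusted p 0.96) and that of Shmt2 -0.16 (limma adjusted p 0.085), neither called. Over the whole list 23 of 32 were called in Relapsed against Chronic IFNG tumours, 14 higher and 9 lower, beside 52.0% of all genes (31.5% higher, 20.5% lower). Fibroblast markers moved with the Chronic IFNG group, 7 of 8 being called higher there than in Parental LLC1 tumours (all genes, 9.03%). The sum of the dissociation stress genes was 768 to 854 CPM in Chronic IFNG against 498 to 654 in Parental LLC1 tumours. In Relapsed against Parental LLC1 tumours the summed markers were at 349 to 373 against 234 to 295 CPM for epithelial tumour cells. They were at 37.8 to 42.6 against 55.4 to 63.9 for endothelial cells and 30.1 to 36.2 against 18.6 to 21.1 for pericytes. The part of these markers in the differences was not tested.

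**Figure D4:**
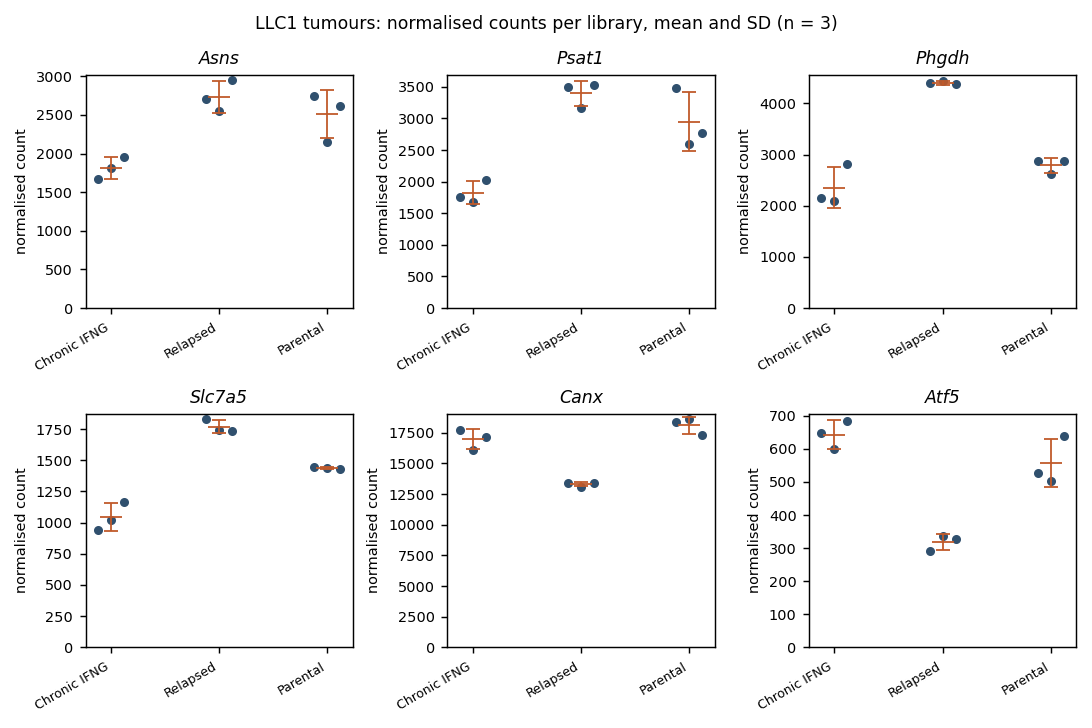
Normalised counts per LLC1 library for 6 genes (points: libraries; bars: mean and SD, n = 3; linear axis from 0). Chronic IFNG libraries are lowest for Asns, Psat1 and Slc7a5, Relapsed libraries highest for Phgdh and Slc7a5 and lowest for Canx and Atf5.

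Among the integrated stress response factors, Atf4 mRNA itself moved in opposite directions in 1st and 2nd relapse KP tumours. It had 10449, 10593 and 11119 counts in 2nd relapse, 4403, 4069 and 4862 in Late relapse, 2852, 2873 and 3075 in 1st relapse and 3979, 4173 and 4266 in Chronic IFNG tumours, against 4349, 4300.4 and 4537 in Parental KP tumours. The 2nd relapse libraries lay far above and the 1st relapse libraries below all others, while Late relapse overlapped parental. It rose 2.44-fold in 2nd relapse (log2 difference 1.19, SE 0.05, limma adjusted p 1.8e-10) and fell 1.5-fold in 1st relapse (log2 difference -0.51, SE 0.05, limma adjusted p 3.5e-06). The Late relapse difference was 0.01 (limma adjusted p 0.88) and the Chronic IFNG difference -0.08 (limma adjusted p 0.36), neither called. So 6 of the 7 amino acid genes were higher in Late relapse KP tumours (all genes, 31.0%) without a called change of Atf4 mRNA. In 1st relapse tumours, where Atf4 mRNA was lower, 3 of 7 were higher (all genes, 25.4%). In LLC1, Atf4 had 6189, 6019.9 and 5808 counts in Chronic IFNG and 6740.2, 6749.9 and 7067 in Relapsed tumours, against 7762, 6373 and 6220.2 in Parental tumours, and neither difference was called (-0.16, limma adjusted p 0.15 and 0.02, limma adjusted p 0.85).

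The genes around Atf4 were also higher in 2nd relapse tumours, which was examined after the Atf4 value had been seen. Atf4 lies at chr15:80255184-80257541 (GRCm38). In 2nd relapse KP tumours the 269 tested genes between the start of chromosome 15 and Atf4 had a median difference from parental of 0.55, and 235 of them lay above 0. Beyond Atf4 the median was 0.39 for the 6 genes within 1 Mb, 0.04 for 43 genes at 1 to 5 Mb and -0.06 for 150 genes farther on. Creld2, an ER chaperone gene farther along the same chromosome (chr15:88819646-88826683), had a difference of 0.09. The 28 tested neighbours of Atf4 within 1 Mb had a median of 0.65, and 1 of them rose as much as Atf4. Before Atf4 the same stretch had medians of -0.07 in 1st relapse, -0.01 in Late relapse and -0.03 in Chronic IFNG KP tumours. It was not even throughout in 1st relapse. There the 1 Mb bins at -23 to -22 Mb (8 genes) and -21 to -20 Mb (4 genes) from the Atf4 start had medians of 1.31 and 1.32. The bin between them had a median of -0.06 (9 genes). Atf4 and most tested genes of the chromosome segment before it were thus higher together in 2nd relapse. DNA copy number was not measured. For comparison, Asns, Herpud1 and Xbp1 had tested neighbours within 1 Mb whose medians in that group were 0.17, 0.11 and 0.14. Psat1 lies on chromosome 19 (chr19:15904678-15947337), whose 406 tested genes had a median of 0.28, and its 4 neighbours had one of 0.26, against 1.01 for Psat1.

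**Figure D5:**
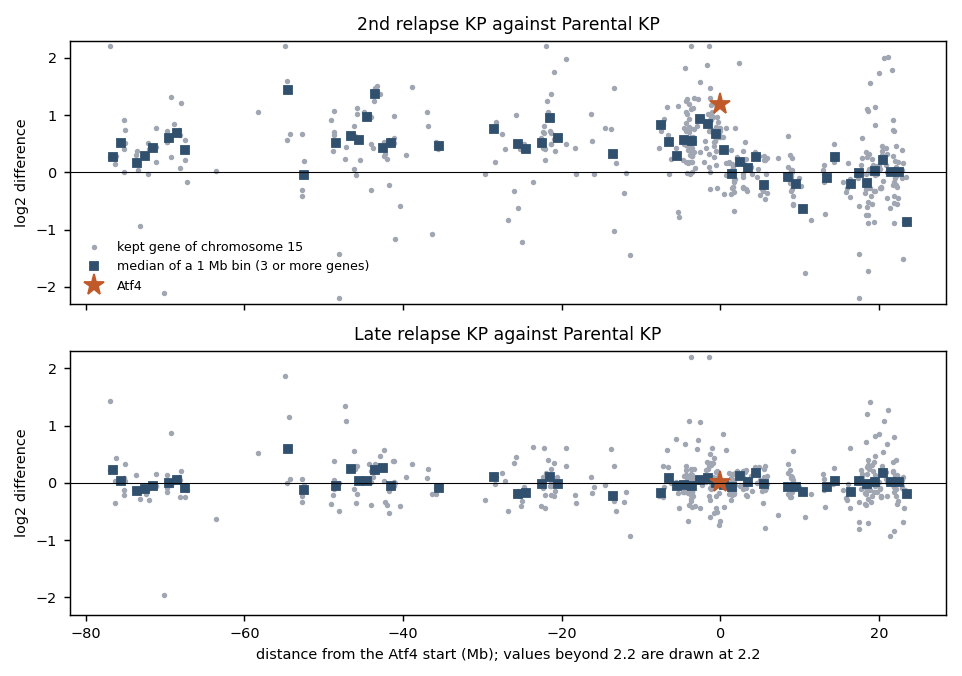
Log2 difference from Parental KP tumours of every tested chromosome 15 gene against its distance from the Atf4 start (Mb), in 2nd relapse (top) and Late relapse (bottom) tumours; squares are medians of 1 Mb bins, the star is Atf4. In 2nd relapse the genes before Atf4 lie mostly above 0 (median 0.55) and those more than 5 Mb after it around -0.06, whereas in Late relapse the median before Atf4 is -0.01.

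The other factors of the response did not move as a block. Ddit3, which encodes the death-linked factor CHOP, had 401, 416 and 566 counts in Late relapse, 462, 368 and 389.6 in 2nd relapse, 249, 257 and 284 in 1st relapse and 375, 438 and 390.5 in Chronic IFNG tumours, against 324, 304 and 374 in Parental KP tumours. It was called against parental only in Late relapse (log2 difference 0.23, SE 0.07, limma adjusted p 0.011), where 1 library stood above the other 2, and the call was lost without Late relapse KP replicate 3 (log2 difference 0.14, adjusted p 0.061). In 2nd relapse the difference of 0.14 was not called and the groups overlapped. In LLC1 it had 264, 276 and 309 counts in Chronic IFNG and 300.2, 235 and 265 in Relapsed tumours, against 356, 262 and 279 in Parental tumours, overlapping in both cases. Trib3, a pseudokinase and ATF4 target, had 181, 232 and 230.3 counts in 2nd relapse, 179, 163 and 327 in Late relapse and 158, 159 and 189 in Chronic IFNG tumours, against 96.5, 84.9 and 99.7 in Parental KP tumours. Groups did not overlap, and it rose 2.29-fold in 2nd relapse (log2 difference 0.40, SE 0.08, limma adjusted p 8.1e-04) and 2.38-fold in Late relapse (log2 difference 0.40, SE 0.08, limma adjusted p 9.7e-04). The Chronic IFNG call (0.27, limma adjusted p 0.035) was lost without any 1 library of either group (log2 differences 0.24 to 0.28, adjusted p 0.051 to 0.12). The means of Trib3 in Parental (93.7) and 1st relapse (105) KP tumours lay below the filter of 144.2 counts. It was thus tested in KP only through groups where it was high, and its calls are not independent of the filter.

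Chac1, which breaks down glutathione, was a low gene. Its KP group means were 145 counts in 2nd relapse and 152 in Late relapse but 77.5 to 90.7 in the other groups. The filter lay at 144.2 counts, so it was tested in KP only because it was high in these relapses. Its KP calls are therefore not independent of the filter. It had 118, 169 and 147 counts in 2nd relapse and 143, 117 and 196 in Late relapse tumours, against 93.6, 86.2 and 92.4 in Parental KP tumours (0.20, limma adjusted p 0.014 and 0.22, limma adjusted p 0.0095). Groups did not overlap. The 2nd relapse call was lost without 2nd relapse KP replicate 2 (log2 difference 0.16, adjusted p 0.064), and the Late relapse call without Late relapse KP replicate 3 (log2 difference 0.15, adjusted p 0.053). In LLC1, where it was below the filter, it had 97.7, 87.5 and 103 counts in Relapsed and 50.9, 38.8 and 29.6 in Chronic IFNG tumours, against 62.1, 45.3 and 33.7 in Parental tumours. Atf5, a factor translated under the same control as Atf4, was lower than parental in 5 of the 6 comparisons. The clearest fall was in Relapsed LLC1 tumours, with 292, 337 and 327 counts against 527, 502 and 639 in Parental LLC1 tumours (log2 difference -0.43, SE 0.06, limma adjusted p 3.1e-04), and its 42 tested neighbours within 1 Mb had a median of -0.08. In 2nd relapse KP tumours it had 146, 198 and 234 counts against 286, 302 and 289.8 in Parental KP tumours (log2 difference -0.26, SE 0.06, limma adjusted p 8.8e-04). The other 3 KP differences were -0.17 (Chronic IFNG), -0.17 (1st relapse) and -0.13 (Late relapse), with limma adjusted p of 0.045, 0.017 and 0.0499. The Chronic IFNG call was lost without any 1 library of either group (log2 differences -0.18 to -0.15, adjusted p 0.051 to 0.14), the 1st relapse call without 1st relapse KP replicate 2 (log2 difference -0.14, adjusted p 0.068) and the Late relapse call without any 1 library of either group (log2 differences -0.14 to -0.12, adjusted p 0.071 to 0.13).

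Ddit4, an inhibitor of the growth kinase mTORC1 also known as REDD1, had 1479.7, 1667 and 2020.2 counts in Late relapse, 3097, 3223 and 3273 in 2nd relapse and 2037, 2080.3 and 2186 in 1st relapse tumours, against 2466, 2699 and 3119 in Parental KP tumours. Late and 1st relapse lay below parental without overlap (log2 difference -0.55, SE 0.08, limma adjusted p 3.8e-05 and log2 difference -0.32, SE 0.08, limma adjusted p 0.0037), whereas the 2nd relapse difference of 0.18 (limma adjusted p 0.051) was not called. It was called without Parental KP replicate 3 (log2 difference 0.26, adjusted p 0.010). It also fell in Relapsed LLC1 tumours, with 1059.6, 1244 and 1531 counts against 2041, 1719.6 and 1557 in Parental LLC1 tumours (log2 difference -0.37, SE 0.10, limma adjusted p 0.011). Ppp1r15a, which encodes the phosphatase subunit GADD34 that reverses eIF2 alpha phosphorylation, was called in no comparison with parental tumours. Its libraries were spread widely, for example 773, 1201 and 1253 counts in Late relapse against 605, 668 and 1032 in Parental KP tumours (0.32, limma adjusted p 0.093). That difference was called without Late relapse KP replicate 1 or Parental KP replicate 3 (log2 difference 0.47 in both cases, adjusted p 0.021 to 0.023).

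Xbp1 was called in all 6 comparisons with parental tumours and Atf6 in 3. Xbp1 had 3224, 3092 and 3599.9 counts in 1st relapse, 2831, 2998 and 2996 in 2nd relapse, 2437, 2722 and 2988 in Late relapse and 2951, 2207 and 2642 in Chronic IFNG tumours, against 1758, 1599.8 and 1829 in Parental KP tumours. Every library of the 4 groups lay above every parental one. The rises were 1.91-fold in 1st relapse (log2 difference 0.77, SE 0.08, limma adjusted p 3.5e-06), 1.70-fold in 2nd relapse (log2 difference 0.62, SE 0.08, limma adjusted p 1.1e-05), 1.57-fold in Late relapse (log2 difference 0.52, SE 0.08, limma adjusted p 1.0e-04) and 1.5-fold in Chronic IFNG tumours (log2 difference 0.47, SE 0.08, limma adjusted p 9.1e-04). In LLC1 it had 3816, 3419 and 3315 counts in Chronic IFNG and 2491, 2452 and 2499 in Relapsed tumours, against 2735, 2902 and 2816 in Parental tumours. It rose in Chronic IFNG LLC1 (log2 difference 0.28, SE 0.05, limma adjusted p 0.0058) and fell in Relapsed LLC1 (log2 difference -0.16, SE 0.05, limma adjusted p 0.038). The 867 tested genes of chromosome 11, which carries Xbp1, had a median of -0.12 in Relapsed LLC1 tumours, and the part of the chromosome was not tested. The Relapsed call was lost without Relapsed LLC1 replicate 1, 2 or 3 or Parental LLC1 replicate 2 or 3 (log2 differences -0.16 to -0.14, adjusted p 0.076 to 0.11). Xbp1 was thus the only gene of the list called higher in both Chronic IFNG groups.

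Atf6 had 3193, 3325 and 3060.3 counts in 2nd relapse, 2068, 1968 and 2143 in 1st relapse, 2736, 2713 and 2319 in Late relapse and 2097, 2523 and 2319 in Chronic IFNG tumours, against 2546, 2645 and 2582 in Parental KP tumours. It fell in 1st relapse (log2 difference -0.27, SE 0.06, limma adjusted p 0.0022), where Xbp1 was highest, and rose in 2nd relapse (log2 difference 0.25, SE 0.06, limma adjusted p 0.0022). Late relapse overlapped parental (0.00, limma adjusted p 0.97), and the Chronic IFNG difference of -0.14 (limma adjusted p 0.13) was not called with all libraries. It was called without Chronic IFNG KP replicate 2 (log2 difference -0.19, adjusted p 0.044). In LLC1 it had 3535, 3568 and 3467 counts in Relapsed and 2456, 2325 and 2642 in Chronic IFNG tumours, against 2625, 2493 and 2675 in Parental tumours. The Relapsed libraries lay above all others (log2 difference 0.38, SE 0.05, limma adjusted p 2.2e-04) and the Chronic IFNG difference of -0.06 was not called.

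The called ER chaperones went both ways in 4 of the 6 comparisons with parental tumours. In 1st relapse KP tumours 7 of 14 rose and the other 7 were not called, with a median of 0.14 (all genes, 25.4% higher, 25.5% lower); after median centring 5 rose and 1 fell. In 2nd relapse tumours 5 rose and 3 fell (median 0.09; all genes, 36.8% higher, 29.0% lower), against 2 and 5 after quantile normalisation and 3 and 4 after median centring, so the direction of the group as a whole rested on the scaling. In Late relapse tumours 5 rose and 2 fell (median 0.06; all genes, 31.0% higher, 25.9% lower; 4 and 3 after quantile normalisation, 3 and 2 after median centring), and without Parental KP replicate 3 only 3 were called. In Chronic IFNG KP tumours 1 rose and 1 fell (all genes, 12.8% higher, 9.00% lower; 2 rose after quantile normalisation; 1 call remained without Chronic IFNG KP replicate 1 and 1 without Parental KP replicate 1). In LLC1, 4 rose and 4 fell in Relapsed tumours (all genes, 25.9% higher, 19.5% lower; 3 and 5 after median centring; 5 calls without Relapsed LLC1 replicate 1). In Chronic IFNG LLC1 tumours 2 fell (all genes, 9.03% higher, 15.5% lower), with 1 higher and 2 lower after quantile normalisation, and 1 call was left without Chronic IFNG LLC1 replicate 1 or 2 or Parental LLC1 replicate 1 or 2.

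Hspa5 and Hsp90b1 are among the most abundant chaperones of the lumen. Hspa5, the ER HSP70 also called BiP that holds the sensors inactive, had 21724, 19874 and 23198 counts in 1st relapse, 15514, 15523 and 14334 in 2nd relapse and 16889, 17934 and 20175 in Late relapse tumours, against 17274, 16612 and 17049 in Parental KP tumours. It rose 1.27-fold in 1st relapse (log2 difference 0.33, SE 0.07, limma adjusted p 0.0018), with no overlap. The 2nd relapse libraries all lay below parental, yet the difference of -0.16 (limma adjusted p 0.067) was not called. In Relapsed LLC1 tumours Hspa5 had 19742, 19266 and 21459 counts against 24061, 23232 and 22608 in Parental LLC1 tumours (log2 difference -0.21, SE 0.06, limma adjusted p 0.015). That call was lost without Relapsed LLC1 replicate 1 or 2 (log2 differences -0.19 to -0.17, adjusted p 0.050 to 0.067), and the difference was -0.01 under quantile normalisation. Hsp90b1, the ER HSP90 also called GRP94, had 17961, 19751 and 20659 counts in 2nd relapse against 15944, 15258 and 14303 in Parental KP tumours. The groups did not overlap (log2 difference 0.35, SE 0.07, limma adjusted p 7.4e-04), but the difference was 0.11 and not called after quantile normalisation. The libraries of Hspa5 and Hsp90b1 thus lay on opposite sides of parental in 2nd relapse tumours.

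Calnexin (Canx) and calreticulin (Calr) hold glycoproteins during folding. Canx had 13435, 13108 and 13437 counts in Relapsed LLC1 tumours against 18366, 18588 and 17339.8 in Parental LLC1 tumours, a 1.36-fold fall with no overlap (log2 difference -0.43, SE 0.05, limma adjusted p 1.3e-04). Its 15 tested neighbours within 1 Mb had a median of -0.26 there, and 7 of them fell as much as Canx. In 2nd relapse KP tumours Canx was higher by 0.14 (limma adjusted p 0.018), but the sign turned to -0.09 after quantile normalisation, and the call was lost without 2nd relapse KP replicate 1 or Parental KP replicate 3 (log2 differences 0.10 to 0.12, adjusted p 0.062 to 0.10). Calr was called in 1 comparison with parental tumours, 1st relapse KP, with 16779.8 ± 938 counts against 15043 ± 924 in Parental KP tumours (SD, n = 3 each; 0.15, limma adjusted p 0.046), and lost its call without 1st relapse KP replicate 1 or 3 or Parental KP replicate 1 or 3 (log2 differences 0.10 to 0.17, adjusted p 0.060 to 0.20).

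Over the comparisons with parental tumours the 3 disulfide isomerases were called lower 7 times and higher 1 time. Among all genes, 9.00 to 29.0% were called lower and 9.03 to 36.8% higher in these comparisons. Most of the lower calls were of Pdia6, and the comparisons of a line share their parental libraries. Pdia6 had 5239.8, 5215 and 5349.7 counts in 2nd relapse, 5978, 6262 and 6565 in Late relapse and 6307, 6878 and 6942 in Chronic IFNG tumours, against 7637, 7553 and 7645 in Parental KP tumours. All these libraries lay below parental, and it fell 1.44-fold in 2nd relapse (log2 difference -0.49, SE 0.05, limma adjusted p 3.5e-07) and 1.21-fold in Late relapse (log2 difference -0.26, SE 0.05, limma adjusted p 2.9e-04). It also fell in Chronic IFNG LLC1 tumours, with 11061, 10851 and 11412 counts against 14820.0, 15658 and 13479 in Parental LLC1 tumours (log2 difference -0.38, SE 0.06, limma adjusted p 0.0027). The 375 tested genes of chromosome 12, which carries Pdia6, had a median of -0.15 there, against -0.02 over all tested genes. The part of the chromosome in the fall was not tested. The Chronic IFNG KP fall of Pdia6 by -0.17 (limma adjusted p 0.017) was not called without Chronic IFNG KP replicate 1 or Parental KP replicate 1 (log2 differences -0.17 to -0.13, adjusted p 0.053 to 0.089). Pdia3, which works with calnexin and calreticulin, had 6833 ± 303 counts in 2nd relapse and 10093 ± 335 in 1st relapse tumours, against 9005 ± 268 in Parental KP tumours (SD, n = 3 each), lower in 2nd relapse (-0.37, limma adjusted p 2.4e-05) and higher in 1st relapse (0.16, limma adjusted p 0.025). The 1st relapse call was lost without 1st relapse KP replicate 3 or Parental KP replicate 2 or 3 (log2 differences 0.13 to 0.15, adjusted p 0.061 to 0.096). In Relapsed LLC1 tumours Pdia4 had 6525, 6279 and 6951 counts against 8788, 9209.6 and 7742 in Parental LLC1 tumours, and fell without overlap (log2 difference -0.36, SE 0.07, limma adjusted p 0.0018), as did Pdia3 (-0.30, limma adjusted p 0.0016).

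Among the co-chaperones and small inducible ER proteins, Sdf2l1 was called in every comparison with parental tumours. Sdf2l1, a partner of the J-protein of Dnajb11, had 336, 341 and 374 counts in 2nd relapse, 324, 309 and 371 in 1st relapse, 245, 313 and 348 in Late relapse and 235, 223 and 271 in Chronic IFNG tumours, against 166, 154 and 158 in Parental KP tumours. Every non-parental library lay above every parental one. It rose 2.2-fold in 2nd relapse (log2 difference 0.47, SE 0.06, limma adjusted p 4.4e-06), 2.11-fold in 1st relapse (log2 difference 0.44, SE 0.06, limma adjusted p 2.1e-05), 1.90-fold in Late relapse and 1.53-fold in Chronic IFNG KP tumours (limma adjusted p 8.9e-05 and 0.0093). In LLC1 it had 239, 243 and 298 counts in Chronic IFNG and 528, 429.9 and 487 in Relapsed tumours, against 361, 402 and 335 in Parental tumours. It was lower in Chronic IFNG (-0.24, limma adjusted p 0.020) and higher in Relapsed tumours (0.21, limma adjusted p 0.018). The Chronic IFNG LLC1 call was lost without Chronic IFNG LLC1 replicate 1 or 2 or Parental LLC1 replicate 1 or 2 (log2 differences -0.24 to -0.20, adjusted p 0.054 to 0.074). The Relapsed LLC1 call was lost without Relapsed LLC1 replicate 1 or 3 or Parental LLC1 replicate 3 (log2 differences 0.17 to 0.21, adjusted p 0.052 to 0.075).

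Manf, a secreted protein released on ER calcium loss, had 1825, 1616 and 1968 counts in 1st relapse against 1203, 1227 and 1213 in Parental KP tumours, a 1.48-fold rise without overlap (log2 difference 0.42, SE 0.07, limma adjusted p 1.1e-04). Dnajc3, a J-protein of the ER lumen, had 2391, 2304 and 2633 counts in 1st relapse and 2316, 2395 and 2254 in 2nd relapse tumours, against 1825, 1857 and 1736 in Parental KP tumours (log2 difference 0.35, SE 0.05, limma adjusted p 6.0e-05 and log2 difference 0.29, SE 0.05, limma adjusted p 1.6e-04), again without overlap. Dnajb11 rose in all 3 KP relapse groups and in Relapsed LLC1 tumours by 0.12 to 0.21, and its 1st relapse call (0.21, limma adjusted p 0.0038) was the only one of these 4 that held when each library was left out in turn. The 2nd relapse call was lost without 2nd relapse KP replicate 1, 2 or 3 or Parental KP replicate 1 or 3 (log2 differences 0.06 to 0.14, adjusted p 0.055 to 0.27), the Late relapse call without Parental KP replicate 3 (log2 difference 0.11, adjusted p 0.076) and the Relapsed LLC1 call without Relapsed LLC1 replicate 1, 2 or 3 or Parental LLC1 replicate 1 or 2 (log2 differences 0.13 to 0.16, adjusted p 0.053 to 0.072).

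Hyou1, a large HSP70-like exchange factor for BiP, was lower in KP, with 3284, 3305 and 3019.8 counts in 2nd relapse and 3640.1, 3564 and 3749.5 in Late relapse tumours, against 4410.1, 4739 and 3979 in Parental KP tumours (log2 difference -0.39, SE 0.06, limma adjusted p 2.2e-05 and log2 difference -0.23, SE 0.06, limma adjusted p 0.0031). In Relapsed LLC1 tumours it had 7572, 6967 and 7802 counts against 5926, 6391 and 5850.2 in Parental LLC1 tumours and rose (log2 difference 0.28, SE 0.06, limma adjusted p 0.0042). The part of chromosome 9, which carries Hyou1 and whose 618 tested genes had a median of 0.14 in Relapsed LLC1 tumours, was not tested. Creld2, an ER stress-inducible protein with isomerase activity, also rose there, with 1241, 1002 and 1144 counts against 787, 820.2 and 838 in Parental LLC1 tumours (log2 difference 0.32, SE 0.06, limma adjusted p 0.0012). Dnajb9, an IRE1-dependent J-protein, was called in none of the 13 comparisons, and its differences from parental tumours ran from -0.09 to 0.04.

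Of the ERAD genes, Herpud1 had the largest difference of the whole list in the comparisons with parental tumours. Herpud1 encodes a membrane protein that organises the degradation complex. It had 2936, 2934 and 2886 counts in 2nd relapse, 1683, 1457 and 1802 in 1st relapse, 1359, 1602 and 2035 in Late relapse and 1414, 985 and 1208 in Chronic IFNG tumours, against 734, 633 and 696 in Parental KP tumours. All libraries of the 4 groups lay above the parental ones, and the 2nd relapse libraries were the highest and close together. It rose 4.24-fold in 2nd relapse (log2 difference 1.54, SE 0.10, limma adjusted p 8.4e-09), 2.39-fold in 1st relapse (log2 difference 0.87, SE 0.10, limma adjusted p 8.8e-06), 2.42-fold in Late relapse (log2 difference 0.87, SE 0.10, limma adjusted p 7.7e-06) and 1.75-fold in Chronic IFNG tumours (log2 difference 0.53, SE 0.10, limma adjusted p 0.0019). It is the one ERAD gene whose promoter window held the C/EBP-ATF element shown above. In LLC1 it had 1159, 979 and 1106 counts in Relapsed and 1220.1, 837 and 809.9 in Chronic IFNG tumours, against 866, 786 and 728 in Parental tumours. Relapsed tumours were higher (log2 difference 0.31, SE 0.10, limma adjusted p 0.028), and Chronic IFNG tumours overlapped parental. The Relapsed call was lost without Relapsed LLC1 replicate 1 or 3 or Parental LLC1 replicate 2 or 3 (log2 differences 0.27 to 0.30, adjusted p 0.068 to 0.095).

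Edem1 was called in 2 and Sel1l in 1 of the 6 comparisons with parental tumours. Edem1, a lectin that marks misfolded glycoproteins, was higher in 2nd relapse KP tumours, with 1936, 2144 and 1803 counts against 1409.8, 1562 and 1579.6 in Parental KP tumours (log2 difference 0.29, SE 0.07, limma adjusted p 0.0033). It was lower in Chronic IFNG LLC1 tumours, with 2041, 2136 and 2209 counts against 2692, 2804 and 2376 in Parental LLC1 tumours (log2 difference -0.25, SE 0.07, limma adjusted p 0.021), a call lost without Chronic IFNG LLC1 replicate 1 or 2 or Parental LLC1 replicate 1 or 2 (log2 differences -0.25 to -0.21, adjusted p 0.057 to 0.078). Sel1l, the adaptor of the ERAD ligase, was called only in Chronic IFNG LLC1 tumours among the comparisons with parental ones, with 2639 ± 92.3 counts against 2266 ± 189 in Parental LLC1 tumours (SD, n = 3 each; 0.19, limma adjusted p 0.034), and lost its call without Chronic IFNG LLC1 replicate 1 or 2 or Parental LLC1 replicate 1 or 3 (log2 differences 0.15 to 0.20, adjusted p 0.066 to 0.11).

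The relapse groups of KP also differed from each other and from the Chronic IFNG group. Between 2nd and 1st relapse tumours 21 of 33 genes were called, 15 higher and 6 lower in 2nd relapse, beside 62.2% of all genes (34.3% higher, 28.0% lower). The split was 14 and 13 after quantile normalisation. The largest were Atf4 (log2 difference 1.70, SE 0.05, limma adjusted p 1.5e-11), Psat1 (0.98, limma adjusted p 7.7e-06), Asns (0.69, limma adjusted p 3.9e-06) and Herpud1 (0.67, limma adjusted p 5.7e-05), all higher in 2nd relapse. Of 14 ER chaperones 6 were lower in 2nd than in 1st relapse, led by Pdia3 (-0.53, limma adjusted p 8.5e-07) and Hspa5 (-0.50, limma adjusted p 3.9e-05), and 6 of 7 amino acid genes were higher. Between Late and 2nd relapse tumours 13 were called, 5 higher and 8 lower in Late relapse, beside 54.9% (25.2% and 29.7%). Atf4 (log2 difference -1.18, SE 0.05, limma adjusted p 5.5e-10), Ddit4 (-0.74, limma adjusted p 2.0e-06) and Herpud1 (-0.67, limma adjusted p 7.8e-05) were lower in Late relapse, and Phgdh was higher (log2 difference 0.99, SE 0.07, limma adjusted p 3.3e-08). Within the amino acid branch Phgdh was higher and Asns (-0.63, limma adjusted p 1.4e-05), Psat1 (-0.44, limma adjusted p 0.0071) and Shmt2 (-0.23, limma adjusted p 0.0097) were lower in Late relapse. Between Late and 1st relapse tumours 21 were called, 11 higher and 10 lower in Late relapse, beside 48.1% (24.6% and 23.5%). They were led by Phgdh (0.91, limma adjusted p 3.0e-07), Psat1 (0.54, limma adjusted p 0.0026), Atf4 (0.52, limma adjusted p 5.6e-06) and Mthfd2 (0.45, limma adjusted p 2.8e-04), and 7 of 14 ER chaperones were lower in Late relapse.

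Against Chronic IFNG KP tumours, 16 genes were called in 1st relapse, 13 higher and 3 lower, beside 31.0% of all genes (15.8% higher, 15.1% lower). They included Atf4 (-0.43, limma adjusted p 9.1e-05) and Ddit4 (-0.36, limma adjusted p 0.0040) lower and Phgdh (0.35, limma adjusted p 0.0023) and Herpud1 (0.34, limma adjusted p 0.022) higher. That count was 7 without 1st relapse KP replicate 3 and 9 without Chronic IFNG KP replicate 2. In 2nd relapse 21 were called (17 higher, 4 lower; 12 and 7 after quantile normalisation), beside 64.3% of all genes (35.1% and 29.2%). They were led by Atf4 (1.26, limma adjusted p 1.9e-10), Psat1 (1.12, limma adjusted p 1.9e-06), Herpud1 (1.01, limma adjusted p 9.2e-07) and Asns (0.98, limma adjusted p 1.1e-07). In Late relapse 11 were called (10 higher, 1 lower; 10 and 6 after quantile normalisation), beside 50.4% of all genes (25.8% and 24.6%). Phgdh (1.25, limma adjusted p 9.7e-09), Psat1 (0.68, limma adjusted p 4.2e-04) and Mthfd2 (0.58, limma adjusted p 2.9e-05) were higher and Ddit4 was lower (-0.59, limma adjusted p 3.0e-05). All 7 amino acid genes were higher in 2nd relapse and 6 in Late relapse than in Chronic IFNG tumours.

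Levels per kilobase of exon placed some of the chaperones at the top of the list in both lines. In Parental KP tumours Calr was highest, at 5223 normalised counts per kb, followed by Hspa5 at 4015 and Hsp90b1 at 3762. Other chaperones stood far lower there, such as Dnajb9 at 293 and Sdf2l1 at 144. In Parental LLC1 tumours Hsp90b1 stood at 5764 and Hspa5 at 5509.7 counts per kb. Atf4 mRNA was abundant, at 1864 counts per kb in Parental KP and 2877 in Parental LLC1 tumours, while Ddit3 stood at 195 and 175. Asns was at 125 counts per kb in Parental KP and 916 in Parental LLC1 tumours, within tables that cannot be compared directly. In Parental KP tumours Phgdh, at 1978 counts per kb, and Psat1, at 258, stood above Asns, and the lowest of the list were Chac1 at 55.4, Psph at 52.3 and Trib3 at 44.1.

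Other genes of the pathways were taken from 2 lists chosen with earlier results known. Of the ER list, 49 genes were tested in LLC1 and 51 in KP, and of the stress response list 42 in each line. In 2nd relapse KP tumours 29 of the 51 ER genes rose and 7 fell (median 0.21), and 30 of the 42 stress response genes rose and 3 fell (median 0.32), beside 36.8% higher and 29.0% lower over all genes. The ER oxidase Ero1l had 13044 ± 1312 counts in 2nd relapse against 5539 ± 444 in Parental KP tumours (SD, n = 3 each; 1.16, limma adjusted p 4.9e-07), and the ER prolyl isomerase Fkbp11 rose 5.54-fold (1.10, limma adjusted p 1.8e-09). The cystine transporter Slc7a11 rose 7.81-fold, to 1518 ± 219 counts in 2nd relapse against 194 ± 31.1 in Parental KP tumours (1.68, limma adjusted p 2.0e-08), with its partner chain Slc3a2 (0.88, limma adjusted p 5.7e-10) and the stress factor Atf3 (1.06, limma adjusted p 5.6e-04). In Late relapse tumours 28 ER genes rose and 10 fell, and 18 stress response genes rose and 7 fell, beside 31.0% and 25.9%. Slc7a11 (1.71, limma adjusted p 6.4e-08), Fkbp11 (1.20, limma adjusted p 3.0e-09) and Ero1l (1.08, limma adjusted p 2.4e-06) led again, and the isoleucyl-tRNA synthetase gene Iars fell (-0.48, limma adjusted p 1.1e-05).

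In 1st relapse KP tumours 18 ER genes rose and 4 fell (15 and 6 after median centring), and 12 stress response genes rose and 13 fell, beside 25.4% and 25.5% over all genes. The ERAD channel gene Derl1 rose 3.33-fold (1.48, limma adjusted p 1.2e-10). Derl1 lies on chromosome 15 (chr15:57869502-57892448, GRCm38), in the 1 Mb bin from -23 to -22 Mb relative to the Atf4 start. The 8 tested genes of that bin, Derl1 among them, had a median of 1.31 in 1st relapse tumours, and why they rose together was not tested. The mitochondrial enzyme Pck2 rose (0.79, limma adjusted p 1.1e-06), and Ero1l (-0.42, limma adjusted p 0.0067) and the amino acid transporter Slc38a2 (-0.80, limma adjusted p 4.6e-07) fell. In Chronic IFNG KP tumours 3 ER genes rose and 4 fell (1 and 9 after median centring), and 7 stress response genes rose and 7 fell, beside 12.8% and 9.00% over all genes, led by Pck2 (0.51, limma adjusted p 2.0e-04) and the tryptophanyl-tRNA synthetase gene Wars (0.44, limma adjusted p 9.4e-04). The ER count there was 1 without Chronic IFNG KP replicate 1, 4 without replicate 3 of that group and 1 without Parental KP replicate 2. In LLC1, 6 ER genes rose and 4 fell in Chronic IFNG tumours (10 and 3 after quantile normalisation, 8 and 3 after median centring), and 4 stress response genes rose and 13 fell (6 and 9 after median centring), beside 9.03% and 15.5% over all genes. The second count fell to 10 without any 1 of Chronic IFNG LLC1 replicates 1 and 2 and Parental LLC1 replicates 1 and 2. In Relapsed LLC1 tumours 10 ER genes rose and 9 fell, and 14 stress response genes rose and 12 fell (9 and 13 after quantile normalisation or median centring), beside 25.9% and 19.5% over all genes. Ero1l was lower than parental in both LLC1 groups (-0.78, limma adjusted p 0.017 in Chronic IFNG, -1.43, limma adjusted p 2.3e-04 in Relapsed), and so was Slc7a11 (-0.49, limma adjusted p 0.043 and -1.26, limma adjusted p 1.1e-04), the reverse of their sign in 2nd and Late relapse KP tumours. The lines were fitted separately, so that contrast between them was not tested.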

How the data were processed

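Bulk RNA was sequenced from live CD45-negative tumour cells in 24 libraries (stranded total RNA libraries, paired-end, per the labels' protocols). Tools listed in the submitters' processing notes, without their roles, were DESeq2 1.34.0, Salmon 1.8.0 and cutadapt 2.9, and the build was GRCm38. The authors deposited variance-stabilised values on a log2 scale, 1 table for 9 LLC1 and 1 for 15 KP libraries, which were normalised separately. Normalised counts were calculated back from them. Depth was estimated from the spacing of low values, chosen per library so that most of them were whole multiples within 0.15. At the chosen spacing 73.3 to 79.4% were. A spacing fixed beforehand would give 30% by chance, and the chance share for a chosen one was not calculated. Gene names, coordinates and exon lengths came from GENCODE vM21 (GRCm38), and promoter windows from RefSeq GRCm38.p6. Each line was fitted in limma 3.58.1 (R 4.3.3) with an intensity trend and all its groups. Genes with a group mean at least 1 log2 unit above the lowest value (130.4 normalised counts in LLC1, 144.2 in KP) were tested, with Benjamini and Hochberg adjustment over all of them, in 13 comparisons. The fit was tested on simulated data. With 3 against 3 libraries an exact permutation test cannot give a p below 0.1, so none is reported. Members and lists were chosen with earlier results of these data known. Per-library values are given for the regulators, for up to 8 called genes per comparison with parental tumours (4 elsewhere) with the largest differences, and for other genes of the list where the text turns on them; up to 3 genes per direction were named from each wider list. Alternatives were another filter, scaling, variance model, set of groups, block or scale, and leaving out each library. Summaries and figures used Python 3.11.15, pandas 2.3.3 and matplotlib 3.10.9. The genotype of the KP model is not reported here.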

Additional observations from a re-analysis of the deposited data

Results flagged for a closer look

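For 14 gene values in 4 pairs of comparisons, every library of a KP group lay on 1 side of its parental libraries and every library of the LLC1 group on the other side of its own. The lines were fitted separately, and none of these differences between lines was tested. Of the 32 genes of the list tested in both lines, 2 (6.25%) met this rule under Chronic IFNG, and 6 (18.8%), 4 (12.5%) and 2 (6.25%) did so for 1st, 2nd and Late relapse KP beside Relapsed LLC1 tumours. Among all 9822 genes tested in both lines the shares were 5.99%, 16.5%, 21.3% and 18.5%, so the list did not stand above them by more than 3 percentage points in any pair. Under Chronic IFNG, Asns was 0.17 above parental in KP and -0.38 in LLC1 (log2 difference), and Sdf2l1 was 0.23 in KP and -0.24 in LLC1. For 1st relapse KP beside Relapsed LLC1 tumours, the differences were -0.27 and 0.38 for Atf6, 0.33 and -0.21 for Hspa5, 0.16 and -0.30 for Pdia3, and 0.14 and -0.36 for Pdia4. They were -0.15 and 0.25 for Shmt2 and 0.77 and -0.16 for Xbp1. For 2nd relapse KP beside Relapsed LLC1 tumours they were 0.14 and -0.43 for Canx, -0.39 and 0.28 for Hyou1, 0.13 and -0.36 for Pdia4, and 0.62 and -0.16 for Xbp1. For Late relapse KP beside Relapsed LLC1 tumours they were -0.23 and 0.28 for Hyou1 and 0.52 and -0.16 for Xbp1. Relapsed LLC1 is the same group of libraries in 12 of the 14. Of these KP values, those of Asns under Chronic IFNG and of Pdia4 and Shmt2 in the relapses were not called against parental.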

How the results depend on the processing

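With 1 library left out at a time, the number of the list called ran from 5 to 10 in Chronic IFNG LLC1, 3 to 6 in Chronic IFNG KP and 7 to 15 in 1st relapse KP against Chronic IFNG KP tumours. For the other comparisons with parental tumours it ran from 12 to 17 in Relapsed LLC1, 14 to 15 in 1st relapse, 20 to 23 in 2nd relapse and 15 to 20 in Late relapse. The amino acid count ran from 0 to 1 in Chronic IFNG KP and 3 to 5 in Chronic IFNG LLC1, and the ER chaperone count from 1 to 3 in each Chronic IFNG group, 5 to 8 in Relapsed LLC1 and 3 to 7 in Late relapse. Without a filter, 3 of the list and 1 ER chaperone were called in Chronic IFNG KP. With a filter of 3 log2 units, which left 19 of the KP list and 2 amino acid genes to test, 14 were called in 2nd relapse and 9 in Late relapse against parental. Against Chronic IFNG KP 10 were called in 1st, 13 in 2nd and 5 in Late relapse, and 13 in 2nd against 1st relapse. The amino acid counts were then 1, 2 and 2 in 1st, 2nd and Late relapse, and the ER chaperone counts 4 in Late relapse and 1 in Chronic IFNG LLC1. Quantile normalisation and median centring each gave 1 amino acid gene in Chronic IFNG KP. The ER chaperone mean became 0.0215 in Relapsed LLC1 and -0.12 in 2nd relapse under quantile normalisation, and -0.036 in 2nd relapse under median centring. Among values called before or after it, quantile normalisation turned the sign of Trib3 in 1st relapse (-0.21, limma adjusted p 0.043, against 0.05 as deposited) and of Canx in 2nd relapse (-0.0922, limma adjusted p 0.059). The cause of these changes was not tested, apart from the smaller number of genes under the stricter filter. The shares of all genes called under these settings are not given, so these counts are not read against a background.

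Of 1176 single-gene values with 1 library left out, 1075 kept their side of the threshold, 84 lost and 17 gained a call. Direction was compared only for values called with or without the library, and none of those reversed. Deviations of same-numbered libraries correlated from -0.30 to 0.08 over 9 LLC1 pairs and -0.22 to 0.27 over 30 KP pairs, so the numbers were not taken to pair samples. With the replicate number as a block, 8, 16, 6, 15, 24 and 20 of the list were called in Chronic IFNG LLC1, Relapsed LLC1, Chronic IFNG KP, 1st, 2nd and Late relapse KP, with 5 higher and 1 lower in Chronic IFNG KP, and the wider stress response count in Chronic IFNG LLC1 was 10 instead of 17. Low genes such as Chac1, Trib3 and Psph are compressed on the deposited scale, and their differences are limited by few reads.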
